A study of Mus musculus with 6 samples.

Results

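Perforin, the granzymes and the proteins that process and pack them make up the killing cargo of natural killer (NK) cells, and 10 genes of this cargo were followed in splenic NK cells sorted for CD117, the receptor encoded by Kit. They were Prf1, Gzma, Gzmb, Gzmc, Gzmk, Gzmm, Nkg7, Srgn, Ctsc and Ctsw, picked by name for their role in the granule, with earlier results of these data known, out of 17626 genes with a probe. The array held 13 probes for them, 2 each for Nkg7, Srgn and Ctsc and 1 each for the other 7 genes. All 10 were on the array, and 9 passed the filter on dim probes and were tested among 11743 genes. Gzmb did not pass it.

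Kit+ samples were CD3-, NK1.1+ and CD117+ cells, and Kit- samples were CD3-, NK1.1+ cells without CD117. Both came from spleens of female C57Bl/6 mice aged 7 weeks, first enriched on magnetic columns and then sorted by flow cytometry, with a stated NK purity of around 98%. No treatment or genotype is labelled for either group, and the labels give no count of animals per sample. Each group had 3 samples, numbered 1 to 3 in the titles after sorts done 3 times, and each sample was read on 1 Illumina bead array.

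Cytotoxic lymphocytes store perforin and granzymes in secretory lysosomes and release them at the contact with a target cell. Perforin opens pores in the target membrane, and granzymes, which are serine proteases, enter through them and cleave proteins inside the cell. Serglycin holds the cargo in the granule core, and cathepsin C cuts the pro-granzymes into their active form. In mouse NK cells the amounts of perforin and granzymes change with maturation and cytokine exposure.

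The arrays differed in brightness. The raw median intensity lay between 74.1 and 99.9 in Kit+ and between 68.9 and 130.0 in Kit-, and the number 1 arrays had the brightest upper ends. Values below are normalized log2 intensities, and a probe is called above background where it exceeded that array's background level, set at the 95th percentile of 1176 probes for olfactory and vomeronasal receptors, which lay between 6.58 and 7.23. Kit itself averaged 11.17 ± 0.79 across Kit+ arrays and 8.34 ± 0.55 across Kit- arrays (SD, n = 3), which checks the labels. Of 15 tested NK cell markers, 13 in each group were above background on all 3 arrays, and the list's summed linear intensity ran from 40199 to 46680 in Kit+ and from 41766 to 45851 in Kit-. Among them Eomes fell, and with the title number as a block in the fit Tbx21 and Klra4 fell too. Klra4 had a log2 fold of -2.26, though 1 of its 2 kept probes ran the other way. Of the 15 markers 8 had a log2 fold above 0 and 7 below. Cd7 was at 0.96 and did not pass (limma adjusted p = 0.195, and 0.0616 with the block). Of all 11743 tested genes 0.528% were called higher and 0.724% lower without the block, and 3.86% and 4.39% with it, which are the shares to set beside each list. Of 13 tested macrophage and monocyte markers, 5 rose (Slc40a1, Vcam1, Adgre1, Mpeg1 and Axl) and none fell. Of the 13, 12 had a log2 fold above 0 and 1 below, and Lyz2 (0.32) and Cd5l (-0.25) did not pass. The sum of this list ran from 3468 to 4037 in Kit+ and from 1360 to 1408 in Kit-. The neutrophil marker sum ran from 1538 to 3245 in Kit+ and from 1134 to 1281 in Kit- over 12 genes, with none past the threshold without a block and 4 higher with one. Of 9 tested mast cell and basophil markers, none passed, and Cpa3, Fcer1a and Tpsb2 were below background on all 6 arrays. For T cells, 2 of 10 tested markers were higher with the block, Cd3d and Cd28, while Cd3e had a log2 fold of -0.81 that did not pass (blocked adjusted p = 0.0976), and the sum ran from 5086 to 6058 in Kit+ and from 3234 to 4054 in Kit-. Of 12 dendritic cell markers Batf3 rose, and with the block 5 were higher, H2-Aa by 2.07 in log2 units, and 1 was lower. With the block 4 of 7 progenitor markers and 1 of 7 B cell markers (Cd79b) were higher. Of 8 helper-like innate lymphoid cell markers Il7r and Kit, the sorted marker, rose without the block. Those were the 2 with a log2 fold above 0, against 6 below, and the list median was -0.14. The part of these cells in the results below was not tested, and in RNA from whole samples fewer cells of a type and less RNA per cell cannot be told apart.

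Perforin was the granule gene called between the groups without a block, and it was lower in Kit+. Prf1, the pore-forming protein, stood at 6.87, 6.17 and 6.80 on Kit+ arrays 1, 2 and 3, against 10.11, 9.67 and 9.61 on Kit- arrays 1, 2 and 3. Every Kit+ value lay more than 2 log2 units under every Kit- value, and Kit+ 2 was below background, while the other 2 Kit+ arrays were just above it. The means were 6.61 ± 0.38 across Kit+ and 9.80 ± 0.27 across Kit- (SD, n = 3), which is 9.09-fold lower in Kit+ (log2 difference -3.18 with SE 0.25, limma adjusted p = 0.00553). With Kit+ 2 held at its background level, the fold was 7.61. By p-value Prf1 ranked 3 of 11743 genes, and its absolute log2 fold was larger than that of 99.98% of them. The call was lost without Kit+ 3 (limma adjusted p = 0.0567), and with each array centred on its median in place of quantile normalization (adjusted p = 0.465, with a log2 fold of -3.15 and no gene called among all tested).

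The raw scanner values showed the same order without any normalization. Raw Prf1 intensity was 134.3, 92.2 and 94.1 on Kit+ 1, 2 and 3, against 2946, 395 and 692 on Kit- 1, 2 and 3. Within each title number the raw log2 difference, Kit+ minus Kit-, was -4.46, -2.10 and -2.88. In the deposited value table the same differences were -3.40, -3.60 and -2.96, and after background correction and quantile normalization they were -3.24, -3.49 and -2.82. The raw differences thus spread more between sorts (SD 1.20, n = 3 pairs) than those of the value table (SD 0.33) or the normalized values (SD 0.34).

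**Figure D1:**
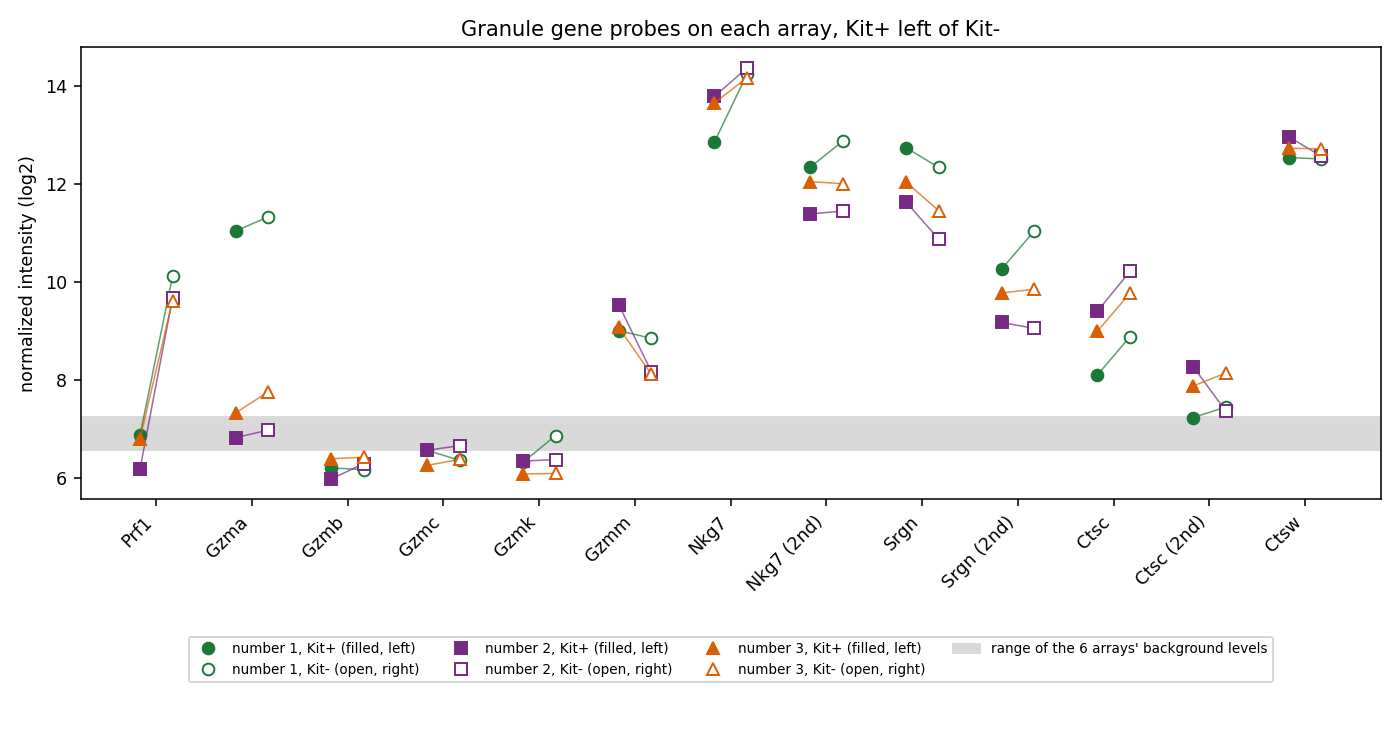
Normalized log2 intensity of the 13 probes on each of the 6 arrays, with Kit+ values filled on the left and Kit- values open on the right, lines joining samples of one title number, and the grey band spanning the arrays' background levels (6.58 to 7.23). Prf1 in Kit+ lies within or under the band, Gzma splits by number and not by group, and Gzmb and Gzmc lie within or under the band in both groups.

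For orientation, the 250 bases upstream of the annotated start of Prf1 are shown with those of Gzmm, the granzyme whose values ran the other way. They come from RefSeq's promoter table for GRCm38.p6, which gives 2 starts for Gzmm, and all 3 windows are on the plus strand: chr10:61297586-61297835 for Prf1, chr10:79688770-79689019 for the first Gzmm start and chr10:79693576-79693825 for the second. Capitals mark matches on either strand to any of 5 motifs. The motif for Ets factors was AGGAAG, searched as these letters. The one for T-box factors was GGTGTG, likewise as letters. The one for RUNX factors was TGTGGT, and the TATA box was searched as TATAAA. For STAT factors the letters were TTCNNNGAA, where N is any base. No match in these windows overlaps another.
Prf1: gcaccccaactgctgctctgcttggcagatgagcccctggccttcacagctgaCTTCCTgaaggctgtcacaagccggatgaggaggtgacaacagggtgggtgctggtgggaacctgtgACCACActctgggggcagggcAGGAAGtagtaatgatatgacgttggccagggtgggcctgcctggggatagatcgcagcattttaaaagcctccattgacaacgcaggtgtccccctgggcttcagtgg
Gzmm, first start: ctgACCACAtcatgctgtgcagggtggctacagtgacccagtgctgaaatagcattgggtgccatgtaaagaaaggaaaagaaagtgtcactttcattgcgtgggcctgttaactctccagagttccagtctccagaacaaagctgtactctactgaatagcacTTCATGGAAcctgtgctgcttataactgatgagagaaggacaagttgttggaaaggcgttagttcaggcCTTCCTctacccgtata
Gzmm, second start: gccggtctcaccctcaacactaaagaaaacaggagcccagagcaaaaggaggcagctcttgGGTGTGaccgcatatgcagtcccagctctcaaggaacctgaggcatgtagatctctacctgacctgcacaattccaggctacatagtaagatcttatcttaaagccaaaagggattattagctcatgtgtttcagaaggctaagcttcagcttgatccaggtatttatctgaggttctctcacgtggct
The Prf1 window held the Ets letters 197 and 109 bases before the start and the RUNX letters 130 bases before it. The first Gzmm window held the Ets, RUNX and STAT letters once each, and the second held the T-box letters once. Over all 32851 windows of this length in the table, 29.5% held the Ets letters, 16.3% T-box, 14.0% RUNX, 7.0% STAT and 12.4% TATA. Among the 11 windows found for 9 of the 10 genes, 5, 4, 7, 3 and 1 held them in that order. These are letter matches and not measured binding.

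No granzyme passed the test between the groups, with or without the block. Gzmm, a granzyme that cleaves after methionine and leucine, stood at 9.0, 9.53 and 9.07 on Kit+ 1, 2 and 3, against 8.85, 8.17 and 8.11 on Kit- 1, 2 and 3. After normalization all Kit+ values lay above all Kit- values, but the gap was small for number 1. The means were 9.20 ± 0.29 across Kit+ and 8.38 ± 0.41 across Kit- (SD, n = 3). The log2 fold of 0.82 did not pass (SE 0.26, limma adjusted p = 0.21, and 0.0652 with the title number as a block). Raw Gzmm intensity was 1078, 491 and 376 on Kit+ 1, 2 and 3, against 1115, 182 and 250 on Kit- 1, 2 and 3. On that scale Kit- 1 was the highest array, and the log2 difference within number 1 was -0.049.

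Gzma, a tryptase and a granzyme long known in resting mouse NK cells, differed between sorts far more than between groups. It stood at 11.03, 6.82 and 7.33 on Kit+ 1, 2 and 3, against 11.32, 6.97 and 7.76 on Kit- 1, 2 and 3. Both number 1 samples were high, both number 2 samples were below background, and both number 3 samples were a little above it. Raw Gzma intensity was 4621, 123 and 122 in Kit+, against 7407, 130 and 195 in Kit-, in the same order of numbers. Within a number the Kit+ value was lower each time, by -0.29, -0.15 and -0.43 in normalized log2 units, and the difference did not pass (log2 fold -0.29, SE 1.35, limma adjusted p = 0.981, and 0.38 with the block). The range between arrays of one group was 4.21 log2 units in Kit+ and 4.35 in Kit-, and the mean of these was larger than for 99.97% of tested genes.

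The other granzymes of the set gave no signal to compare. Gzmb, the aspartate-cleaving granzyme that starts apoptosis, stood at 6.20, 5.98 and 6.39 in Kit+, against 6.17, 6.29 and 6.42 in Kit-, all below background. Gzmc, which lies next to Gzmb on chromosome 14, ran from 6.26 to 6.56 in Kit+ and from 6.36 to 6.66 in Kit-, also below background on all 6 arrays. Gzmk, a trypsin-like granzyme next to Gzma on chromosome 13, ran from 6.08 to 6.34 in Kit+ and from 6.09 to 6.86 in Kit-, and Kit- 1 alone was above background. Each of these genes had a single probe, so a dim transcript and a dim probe cannot be told apart, and their differences are not read as changes.

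Perforin was then set against each granzyme within an array, so that a brightness factor shared by an array's probes drops out of the raw comparison. The background in the raw values does not drop out. Prf1 minus Gzmm averaged -2.59 ± 0.67 across Kit+ and 1.42 ± 0.14 across Kit- (SD, n = 3), a change of -4.01 log2 units. Within numbers 1, 2 and 3 that change was -3.40, -4.86 and -3.77, and on the raw scale its mean was -3.80. With values below background set to it, as for Prf1 on Kit+ 2, the change was -3.75. The exact two-sided permutation test gave p = 0.1, the smallest that 3 against 3 allows, and 0.125 when adjusted over the 5 granzymes. Against Gzmb, Gzmc and Gzmk the changes were -3.08, -3.18 and -2.99, each also with an exact permutation p = 0.1 and 0.125 after adjustment. The exact sign-flip permutation over pairs gave p = 0.25 for each of the 5 granzymes, the smallest that 3 pairs allow. Since these 3 granzymes sat at background, their contrasts restate the fall of Prf1.

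Prf1 minus Gzma was lower in Kit+ inside each sort, while its values overlapped across sorts. It averaged -1.78 ± 2.07 across Kit+ and 1.11 ± 2.06 across Kit- (SD, n = 3), a change of -2.89 (exact permutation p = 0.3, also 0.3 after adjustment). Within numbers 1, 2 and 3 the change was -2.95, -3.34 and -2.39, with an SD of 0.48 (n = 3 pairs). Without Kit+ 1 the change across groups was -1.70, and it was -4.06 without Kit- 1, as leaving out either of them parts the high pair.

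**Figure D2:**
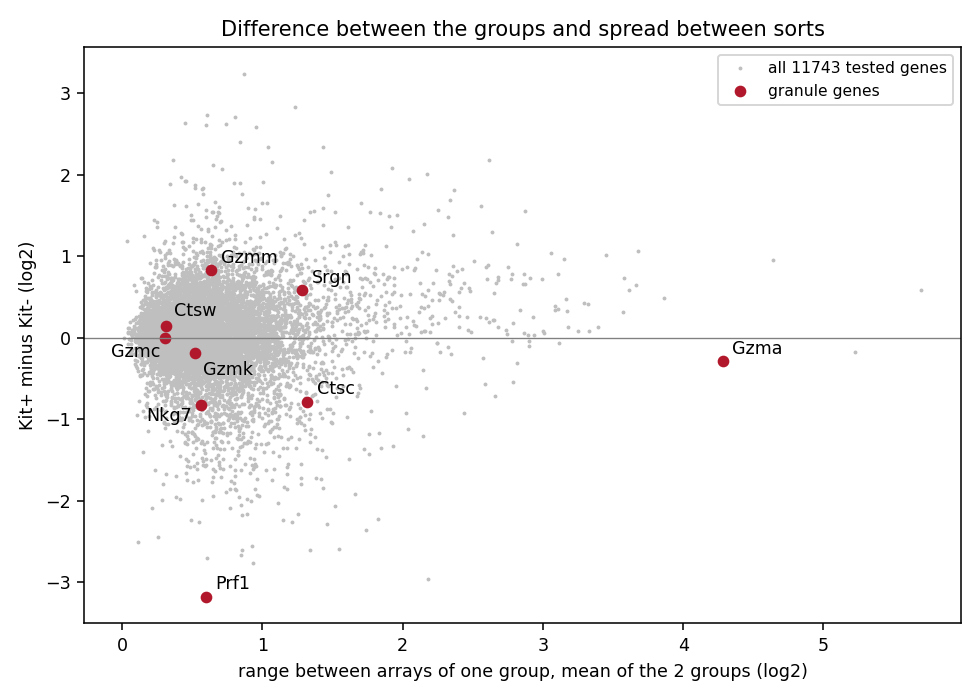
Kit+ minus Kit- difference in normalized log2 intensity (vertical) against the range between the 3 arrays of a group, averaged over the 2 groups (horizontal, log2), for 11743 tested genes in grey and the 9 tested granule genes in red. Prf1 has a difference of -3.18 with a mean range of 0.60, and Gzma a difference of -0.29 with a mean range of 4.28.

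Nkg7, Srgn, Ctsc and Ctsw, the genes of granule membrane, matrix and proteases, were above background on all 6 arrays with every probe. Nkg7, a membrane protein of cytotoxic granules, gave 12.85, 13.78 and 13.65 on Kit+ 1, 2 and 3 with its brighter probe, against 14.24, 14.36 and 14.16 on Kit- 1, 2 and 3. The groups did not overlap on normalized values, where Kit+ 1 was the lowest, but raw intensities overlapped (7369 to 17299 in Kit+, 9033 to 47731 in Kit-). The log2 fold was -0.83 (SE 0.27, limma adjusted p = 0.213), and it passed with the block (adjusted p = 0.045 over genes, and 0.0571 over all kept probes), though not with the block and median centring (0.286). For the dimmer Nkg7 probe the log2 fold was only -0.18, with SE 0.39 (limma adjusted p = 0.978 over probes), with 11.38 to 12.33 in Kit+ and 11.44 to 12.87 in Kit-.

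Ctsc, which encodes cathepsin C, the activator of pro-granzymes, had a brighter probe with the smallest SD between pairs of the 13 probes on normalized values, though not on raw intensity (SD 0.50). Its brighter probe stood at 8.10, 9.40 and 8.99 on Kit+ 1, 2 and 3, against 8.88, 10.21 and 9.77 on Kit- 1, 2 and 3. The groups overlap because number 1 was low in both, yet within numbers the difference was -0.78, -0.81 and -0.78 (SD 0.02, n = 3 pairs). The log2 fold of -0.79 did not pass without the block (SE 0.42, limma adjusted p = 0.524) and passed with it (SE 0.16, adjusted p = 0.0216), though not with the block and median centring (0.209). The dimmer Ctsc probe did not show it, with differences of -0.21, 0.90 and -0.26 within numbers 1, 2 and 3 (log2 fold 0.14, limma adjusted p = 0.979 over probes, and 0.853 with the block). With the mean of both probes the log2 fold of Ctsc was -0.32. Ctsc is also expressed by macrophages and neutrophils, whose marker sums were higher in Kit+ as given above. The part of these cells in the Ctsc values was not tested.

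Srgn, the serglycin core that holds granzymes and perforin in the granule, likewise had probes that disagreed. The brighter probe gave 12.73, 11.63 and 12.04 on Kit+ 1, 2 and 3, against 12.33, 10.88 and 11.45 on Kit- 1, 2 and 3, higher in Kit+ for each number. Its log2 fold was 0.58 (SE 0.41, limma adjusted p = 0.698, and 0.0748 with the block). The dimmer probe had a log2 fold of -0.24 (limma adjusted p = 0.975 over probes). Ctsw, a cathepsin of NK cells and cytotoxic T cells also called lymphopain, was the steadiest of these 4 genes by its mean range, with 12.53, 12.95 and 12.72 on Kit+ 1, 2 and 3, against 12.50, 12.56 and 12.71 on Kit- 1, 2 and 3. Its log2 fold was 0.14 (SE 0.19, limma adjusted p = 0.906).

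**Figure D3:**
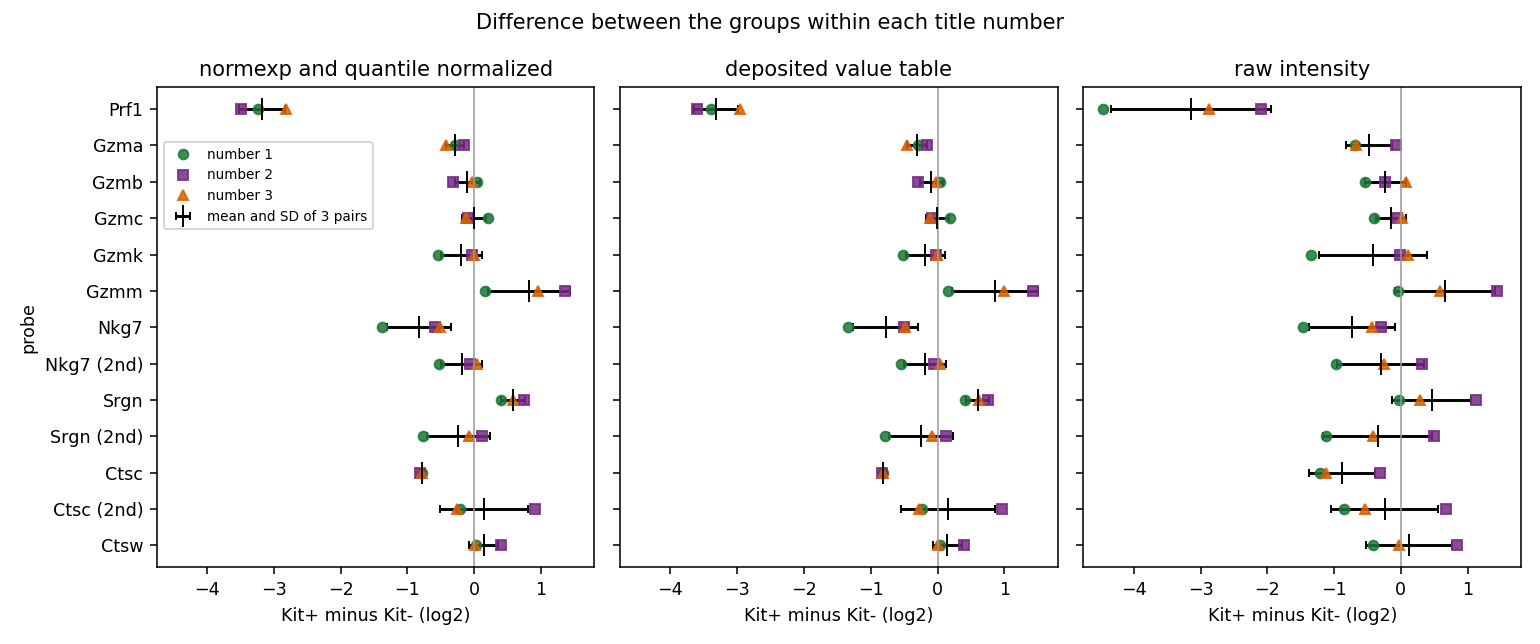
Kit+ minus Kit- difference (log2) of each of the 13 probes within title numbers 1, 2 and 3, on normalized values, on the deposited value table and on raw intensity, with the mean and SD of the 3 pairs in black. Prf1 lies at or below -2.10 in every pair on all 3 scales, while the brighter Ctsc probe lies between -0.81 and -0.78 on normalized values and its other probe lies on both sides of 0.

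Of the 9 tested granule genes, 1 passed at an adjusted p under 0.05, beside 1.25% of all tested genes, and it was lower in Kit+, beside 0.724% of genes lower and 0.528% higher. With the title number as a block 3 fell (Prf1, Nkg7 and Ctsc) and none rose, beside 8.24% of all genes, made up of 4.39% lower and 3.86% higher. Of the 12 kept probes, 1 passed without the block, beside 1.14% of 22994 probes, and 2 with it (Prf1 and the brighter Ctsc probe), beside 5.84%. On normalized values the groups did not overlap for 3 of the 9 genes (Prf1 and Nkg7 lower, Gzmm higher), beside 17.9% of all genes. On raw intensity the groups overlapped for Nkg7 and Gzmm. The normalized difference had one sign in all 3 pairs for 5 genes lower and 3 higher, beside 41.6% of all genes with one sign in either direction. These counts include Gzmk, whose differences are not read as changes, and Ctsw, with differences of 0.031, 0.40 and 0.0078. For Ctsc and Srgn they rest on the brighter probe, while the dimmer probe had mixed signs. They also depend on the normalization. On raw intensity Gzmm, Ctsw, Gzmk and the brighter Srgn probe had mixed signs over the 3 pairs. The median log2 fold was -0.19 over the 9 granule genes and 0.03 over all 11743 genes. Their range ran from -3.18 for Prf1 to 0.82 for Gzmm.

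Genes around the granzymes on the chromosome were mostly too dim to test. The Gzmb cluster on chromosome 14 also holds Gzmd, Gzme, Gzmf, Gzmg and Gzmn and, further along, Ctsg and the mast cell protease genes up to Cma1. Of the 5 further granzymes 4 were tested and none passed. Gzmd had 1 Kit+ and 2 Kit- arrays above background (log2 fold -0.36, SE 0.38, limma adjusted p = 0.864), and Gzmf was below background on all 6. These genes are close copies of each other, which a probe may not tell apart. Of the 8 serine protease genes listed beside them, 7 had a probe and 1 was tested, Cma1, a chymase, at 7.29, 8.17 and 8.24 on Kit+ 1, 2 and 3, against 9.67, 10.42 and 10.15 on Kit- 1, 2 and 3. Its level fell 4.54-fold, a log2 fold of -2.18 with SE 0.31 (limma adjusted p = 0.026). When each sample was dropped in turn the log2 fold ran from -2.39 to -1.88, and 1 of those 6 fits called it.

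Of 18 tested genes of the machinery that releases the granules, none passed without the block, beside 1.25% of all genes, and 1 fell with it, beside 4.39%. It was Ap3b1, a subunit of the adaptor that sorts proteins to lysosomes and granules. Ap3b1 stood at 6.83, 6.79 and 6.86 in Kit+, with 2 of 3 arrays above background, against 7.55, 8.11 and 7.78 in Kit- (log2 fold -0.99, SE 0.20, limma adjusted p = 0.0687, and 0.0141 with the block). The list median was -0.03, with 9 genes above 0 and 9 below. Among 7 tested inhibitors of granzymes and cathepsins none passed either way. Cst7, the cystatin that inhibits cathepsin C, differed by a log2 fold of 0.35 with SE 0.24 (limma adjusted p = 0.683), and Cstb by 0.32 (SE 0.26, adjusted p = 0.746). The inhibitor list had a median of 0.22, with 6 of 7 genes above 0.

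Several lysosomal genes were higher in Kit+. Of 22 tested genes of lysosomal membrane and hydrolases, 3 rose, beside 0.528% of all genes, and none fell. With the block 5 rose, beside 3.86%, and 2 fell, beside 4.39%, and the list median was 0.45. The tetraspanin Cd63 stood at 7.75, 7.87 and 7.73 on Kit+ 1, 2 and 3, against 6.49, 6.17 and 6.38 on Kit- 1, 2 and 3, where it was below background on each array, so it was at least 1.95-fold higher in Kit+ (limma adjusted p = 0.0185). Ctsb, encoding the lysosomal protease cathepsin B, averaged 11.57 ± 0.17 across Kit+ and 10.42 ± 0.20 across Kit- (SD, n = 3), a 2.23-fold rise (limma adjusted p = 0.0409). Ctsz, encoding cathepsin Z, was 2.90-fold higher, by 1.53 on the log2 scale with SE 0.27 (limma adjusted p = 0.0477), and 2 of 3 Kit- arrays were above background. With the dim Kit- array at its background level the fold of Ctsz was 2.49, while averaging its kept probes gave 1.02 in log2 units and no call (adjusted p = 0.128). When each sample was dropped in turn, 1 of 6 fits called Cd63 and 0 called Ctsb or Ctsz. With the block, Ctsh also rose (limma adjusted p = 0.011), and Laptm5, a lysosomal membrane protein of blood cells, fell (log2 fold -0.86, adjusted p = 0.0194). Ctss likewise rose with the block (log2 fold 1.54, limma adjusted p = 0.00163), and Igf2r fell (log2 fold -1.19, adjusted p = 0.0116). The fold of Ctsh was 1.40 with the Kit- arrays held at background, while Kit+ 2 was itself below background. These proteases are abundant in macrophages, and the macrophage and monocyte marker sum was higher on every Kit+ array than on any Kit- array. The part of such cells in these differences was not tested.

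Of 15 tested transcription factors of the cytotoxic programme 1 fell, beside 0.724% of all genes, and none rose. With the block 3 fell, beside 4.39%, and 1 rose, beside 3.86%, with a list median of -0.16. Eomes and Tbx21, the T-box factors that drive perforin and granzyme expression in lymphocytes, had log2 folds of -0.95 (SE 0.16, limma adjusted p = 0.0445) and -0.94 (SE 0.20, adjusted p = 0.0745, and 0.0196 with the block). When each sample was dropped in turn, 0 of 6 fits called Eomes, and averaging its kept probes gave no call either (log2 fold -0.67, adjusted p = 0.188). Ets1 was below background on all Kit+ arrays and on Kit- 2, and with the Kit+ arrays held at background it was 1.53-fold lower in Kit+. Its limma adjusted p was 0.0818, and 0.00433 with the block, while 1 of its 3 kept probes ran the other way. Myb, whose level ran from 6.82 to 9.22 in Kit+ and from 6.37 to 7.41 in Kit-, was higher with the block (adjusted p = 0.0363, against 0.54 without it). Only 1 Kit- array was above background for Myb, and with the others held at background its fold was 1.63, against 2.10 otherwise. Myb is also among the progenitor markers counted above as higher with the block. Of 5 tested genes of other killing pathways none passed without the block, and 1 fell with it, beside 4.39% of all genes, Fasl, the death ligand (log2 fold -0.96, SE 0.32, limma adjusted p = 0.23, and 0.0119 with the block).

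**Figure D4:**
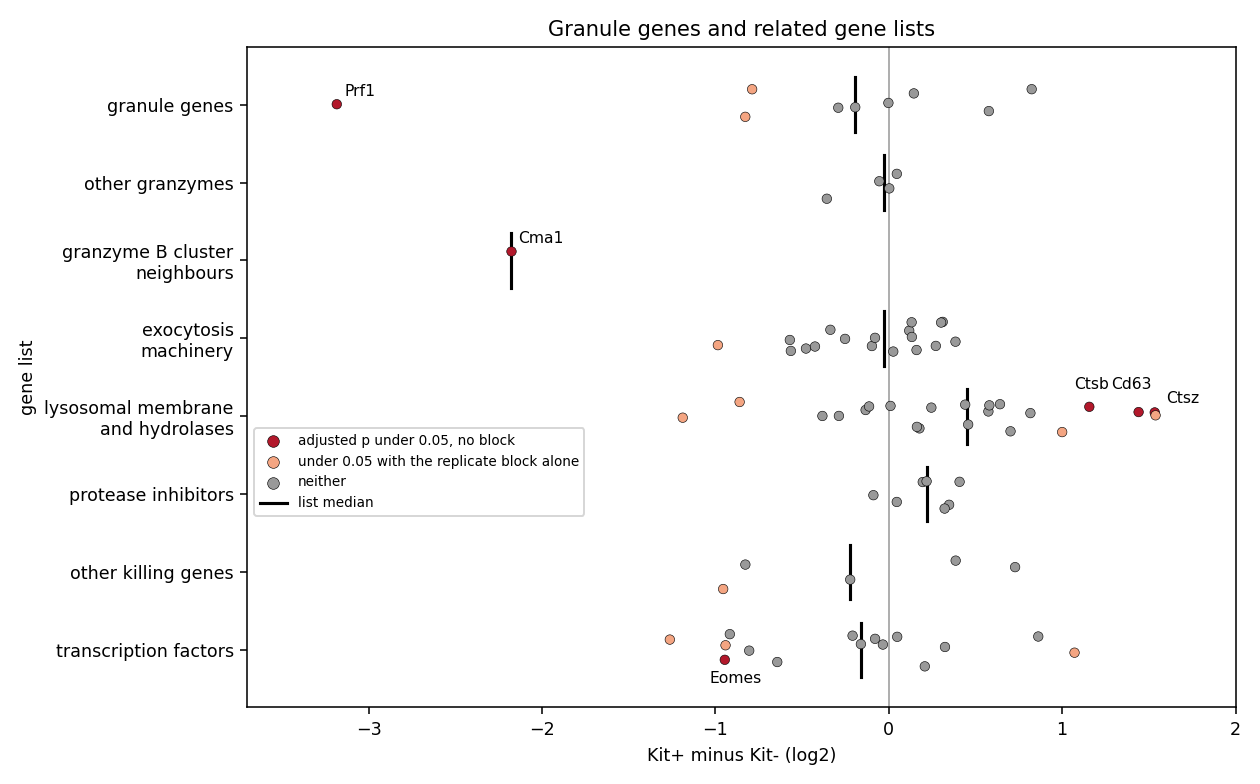
Kit+ minus Kit- difference (log2) of each tested gene in the granule set and 7 related lists, coloured by whether the limma adjusted p was under 0.05 without a block, with the block alone, or neither, with the list median as a bar. Prf1, Cma1 and Eomes are the labelled genes on the lower side and Cd63, Ctsb and Ctsz those on the higher side.

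Tested genes were searched for the centred log2 profile over the 6 arrays nearest to that of Prf1, leaving out clones and predicted genes. The 5 nearest were Klrg1, Pfkp, Itgb2, Tnk2 and Atf4. Their root mean square difference from Prf1 ran from 0.43 for Klrg1 to 0.60 for Atf4 in log2 units. Klrg1, an inhibitory lectin receptor of mature NK cells, stood at 8.13, 8.03 and 8.05 on Kit+ 1, 2 and 3, against 10.70, 10.56 and 10.29 on Kit- 1, 2 and 3. Likeness here was measured over the same 6 samples as the difference between groups, so it restates that difference.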

How the data were processed

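RNA of 3 Kit+ and 3 Kit- samples was hybridised to Illumina arrays of one colour. The authors deposited unnormalized linear intensity for each probe, per the file headers, and a value table that matched a quantile normalization of that intensity with no background correction, within 0.000223 of a value (column median 92.78 in each). BeadStudio 3.1.1.0 is named in the submitters' processing notes. The files hold no detection p-values, so the neqc method named in the plan was replaced by normexp correction (offset 50), log2 and quantile normalization. Of 45988 probes, 22994 with a mean above the median of all were kept, and the brightest kept probe stood for a gene. Genes were assigned from the platform annotation at GEO, updated by gene ID through RefSeq (29457 probes with 1 symbol, 11 with several and 16520 with none listed). Normalized values and background levels were computed here.

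The comparison of groups used limma 3.58.1 (lmFit, eBayes) under R 4.3.3, with Benjamini-Hochberg adjustment over all genes or, where stated, over all kept probes, and a threshold of 0.05. The main fit had no block. The block is the title number, and blocked values stand beside the unblocked ones where they change a call. Across genes, the deviations from the group mean correlated at 0.635, 0.527 and 0.272 between samples sharing a number. Between others they correlated at -0.573 to 0.0843. Each group was centred on its own mean, so correlations between different numbers are not independent of those within a number. Those within a number were all the higher ones, and the numbers were taken as pairs. Without the block the limma p-values measure the spread between samples of a group, which came from separate sorts. With it they measure the spread of the differences within title numbers. The number of arrays limits the precision of both. Contrasts between genes used exact two-sided permutation tests. The code was tested on simulated arrays.

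The granule genes and gene lists were chosen with earlier results of these data known. Named genes are all 10 granule genes, up to 5 genes of each related list past the threshold in either fit (otherwise the 2 of smallest p) and the 5 genes nearest to Prf1, clones and predicted genes left out. Ctss and Igf2r are named beyond that limit of 5.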

Additional observations from a re-analysis of the deposited data

How the results depend on the processing

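The fall of Prf1 kept its direction in all 23 alternative fits and stayed past the threshold in 17, with 5 of 6 single samples left out. Without 1 sample, or without both samples of a number, its log2 fold ran from -3.37 to -2.96, and it missed the threshold without Kit+ 3, number 2 (-3.03) or number 3 (limma adjusted p = 0.0567, 0.0958 and 0.28); over single samples alone it ran from -3.31 to -2.96. It was -3.08 with 75th percentile centring, -3.15 with median centring and -2.97 on median-centred raw intensity (adjusted p = 0.341, 0.465 and 0.872). Those centrings called 0 genes (728, 655 and 532 at an unadjusted p under 0.05) and 0 granule genes. The number of genes called, 147 in the main fit, was 968 with the replicate block, 821 and 22 with the replicate block on the value table and with median centring, 1328 with array weights (whose estimation stopped short of its tolerance), 453 with values below background set to it (an alternative added after the data were seen), and 0 to 105 with samples left out. Without Kit+ 1, Kit+ 2, Kit+ 3, Kit- 1, Kit- 2 and Kit- 3 it was 36, 30, 0, 76, 32 and 6. Granule genes called lower were 3 with the block or array weights, 2 with the block on the value table, 1 with the block and median centring (Nkg7 and Ctsc not called) and 0 to 1 with samples left out, and Gzmm rose with array weights (1 called higher, adjusted p = 0.00537). All 5 perforin contrasts kept their sign in every alternative run.

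Some differences under the spread changed sign, though not that of Ctsw, and those of Gzmc and Gzmk come from values at or below background and are not read as changes. With single samples left out the lowest values were -1.61 for Gzma, -0.056 for Gzmc, -0.37 for Gzmk, -0.51 for the dimmer Nkg7 probe and -0.71 for the dimmer Srgn probe, and the highest for the dimmer Ctsc probe was 0.42. Gzma was 0.50, 0.24 and 1.03 without Kit+ 2, Kit+ 3 and Kit- 1. Gzmk was 0.017 without Kit- 1. Gzmc was 0.020 on centred raw intensity, 0.014 with median centring (with or without the block), 0.080 with 75th percentile centring, and 0.10, 0.095, 0.044 and 0.056 without Kit+ 3, Kit- 2, number 2 and number 3. The dimmer Nkg7 probe was 0.084 and 0.20 without Kit+ 2 and Kit- 1. The dimmer Srgn probe was 0.041, 0.29 and 0.024 without Kit+ 2, Kit- 1 and number 1. The dimmer Ctsc probe was -0.071 on centred raw intensity, -0.075 with median centring (with or without the block), -0.0090 with 75th percentile centring, -0.18 with array weights, and -0.096 and -0.24 without Kit+ 2 and number 2. The cause was not tested.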

Other observations

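The split of Gzma by sort number was shared by other genes. The same search for the profile of Gzma, also without clones and predicted genes, was made after its values were seen. The 5 nearest tested genes were Rad21, Gabarapl2, Tuba1a, Ctla2a and Tspyl1, with root mean square differences from 0.43 to 0.55 in log2 units. Rad21, a cohesin subunit, stood at 10.42, 6.51 and 6.76 on Kit+ 1, 2 and 3, against 9.75, 5.94 and 6.53 on Kit- 1, 2 and 3. Ctla2a, a cysteine protease inhibitor related to the cathepsin propeptide, stood at 10.29, 6.41 and 6.84 on Kit+ 1, 2 and 3, against 9.42, 6.07 and 6.31 on Kit- 1, 2 and 3. Both were high in the number 1 samples of both groups, and neither passed between the groups (limma adjusted p = 0.968 and 0.956). They were picked for their likeness to Gzma over the same 6 samples, so these values restate the split of Gzma. The number 1 arrays also had the brightest raw upper ends, with a 99th percentile of 4850 in Kit+ and 6370 in Kit-, against 1355 and 1516 on the other two Kit+ arrays and 1027 and 1951 on the other two Kit- arrays, and the part of this in the split was not tested.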
